A study of Homo sapiens with 6 samples.

Results

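The 9 genes CDO1, ADO, CSAD, GOT1, MPST, TST, TSTD1, ETHE1 and SQOR encode enzymes that oxidise cysteine and related thiols, break cysteine down, or dispose of hydrogen sulfide. They were chosen by name and role, though with earlier results of these data known, and make up 9 of the 60675 gene rows of the count table. All 9 had enough reads to be tested, among 18267 genes that did.

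RNA was measured in HEK293, an established human embryonic kidney cell line, in 3 control libraries with the genotype label wild type and 3 libraries labelled MOCS2 RNAi knockdown. MOCS2 encodes the subunits of molybdopterin synthase, which takes part in making the molybdenum cofactor. Cells of both groups were grown in high-glucose DMEM with fetal bovine serum and Geneticin. The sources used here do not give the RNAi construct, nor whether each line was 1 clone or each replicate a separate culture, so the tests measure the spread between these libraries, which may be technical.

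Mammalian cells clear excess cysteine by several routes. CDO1 oxidises cysteine to cysteine sulfinate, which CSAD decarboxylates on the way to taurine, or which aspartate aminotransferases such as GOT1 deaminate, releasing sulfite. Cysteine can instead be transaminated, by GOT1 among others, to mercaptopyruvate, from which MPST takes the sulfur as a persulfide or as hydrogen sulfide. Sulfide is toxic to respiration and is oxidised in mitochondria: SQOR makes a persulfide from it, ETHE1 turns glutathione persulfide into sulfite, and TST joins sulfur and sulfite to thiosulfate. The remaining sulfite is oxidised by SUOX, an enzyme that needs the molybdenum cofactor, which is where this pathway meets MOCS2.

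Reads assigned to genes ranged from 17958632 to 22171106 per library. MOCS2 RNA was not lower under the knockdown label, at 57.8, 66.5 and 65.6 CPM (counts scaled to library size) in the controls and 69.8, 58.9 and 59.9 CPM in knockdown 1, 2 and 3, so every direction below compares labels, not a measured loss of MOCS2 RNA. Of 7 genes known to be expressed in HEK293 all 7 passed the filter on low counts. Their summed level was 1280 to 1784 CPM in controls and 1796 to 2524 CPM under the knockdown label. Of these, VIM averaged 804.7 ± 122.8 and 1277 ± 255 CPM, and NEFL was lower, at 160.4 ± 6.01 and 125.1 ± 8.8 CPM, both without overlap. The groups overlapped in KRT8, KRT18, NEFM, INA and PAX2, whose means were higher under the knockdown label in all but PAX2. Of 5 fibroblast markers 4 passed (18.7 to 29.1 and 10.6 to 17.5 CPM summed). Among them LUM averaged 11.9 ± 4.71 and 1.9 ± 0.685 CPM, while COL1A1 (5.82 ± 0.621 and 6.66 ± 2.75 CPM) and COL3A1 (3.94 ± 1.74 and 4.82 ± 4.43 CPM) had slightly higher means under the knockdown label. Of 3 intestinal markers 1 passed (3.73 to 6.07 and 4.43 to 5.77 CPM, with FABP1 at 0 under the knockdown label), and of 4 hepatocyte and 2 blood markers none did (at most 1.01 and 0.453 CPM summed). The part of the fibroblast markers in the results below was not tested. In bulk RNA, fewer cells with a transcript and less of it per cell cannot be told apart.

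The mean levels of the thiol dioxygenases ADO and CDO1 were higher under the knockdown label, 1.57-fold and 1.48-fold. Those of the taurine-forming CSAD and the sulfide-handling genes TSTD1, TST, ETHE1 and SQOR were lower, at 0.337 to 0.67 times the controls. Those of GOT1 and MPST, enzymes of the mercaptopyruvate route, were 0.881 and 0.925 times the controls, with GOT1 scattered to both sides of them. Steps of the pathway were tested against each other only as within-library ratios of 8 pairs, given below, of which none passed. The groups overlapped in CDO1, GOT1, MPST and SQOR. No gene of the 9 passed edgeR's quasi-likelihood test at an adjusted p of 0.05, and neither did any other gene (0% of 18267). At an unadjusted p of 0.05 the test had 7 of the 9 genes, or 77.8%, against 20.5% of all tested genes: 2 higher, against 9.93% of all genes in that direction, and 5 lower, against 10.6%. The 3 controls and the 3 knockdown-labelled libraries did not overlap in 5 of the 9 genes, or 55.6%, against 26.8% of all genes. The unadjusted count was 4 of the 9 genes without control 2 (10.6% of all genes) or without knockdown 1 (12.4%). It was 5 without control 1 (14%), 6 without control 3 (14.6%) and 8 without knockdown 3 (31.1%). In each of these it moved in the same direction as the share of all genes. Without knockdown 2 it fell to 6 of the 9 while that share rose to 22.1%. Of the genes without overlap, ADO stood above (all genes 12.5%) and CSAD, TST, TSTD1 and ETHE1 below (all genes 14.3%). The median log2 fold change was -0.58 over the 9 genes and 0.02 over all tested genes.

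**Figure D1:**
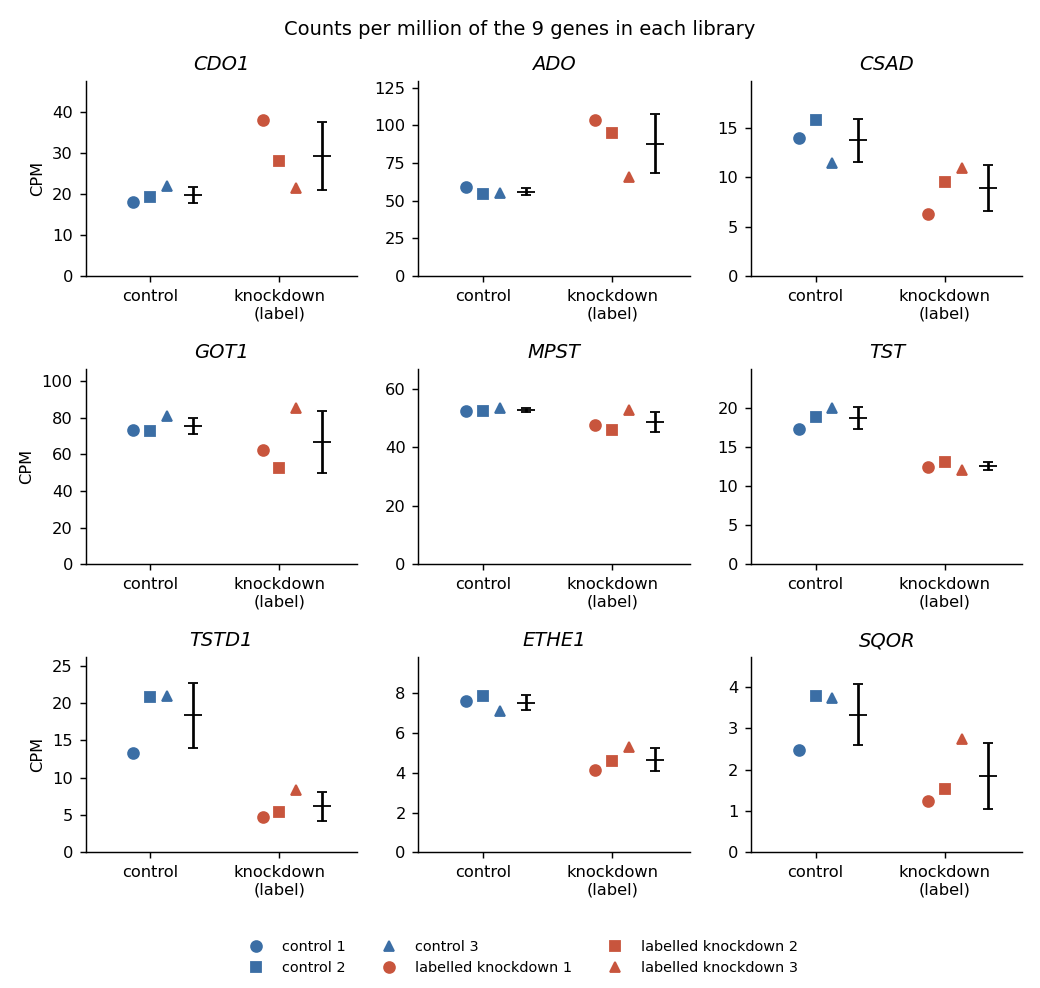
CPM (vertical axes, from 0) of the 9 genes in each control library (blue) and each library labelled knockdown (red), with symbols for replicate 1, 2 and 3 and black bars for the mean and SD of 3 libraries. ADO lies above the controls in all 3 red points, CSAD, TST, TSTD1 and ETHE1 lie below in all 3, and the groups overlap in CDO1, GOT1, MPST and SQOR.

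ADO oxidises cysteamine and the N-terminal cysteines of certain proteins, and it acts as an oxygen sensor. ADO (ENSG00000181915, chromosome 10, 62804857 to 62808483, plus strand, GRCh38) had 58.8, 54.3 and 55.1 CPM in control 1, 2 and 3 and 103.5, 94.7 and 65.6 CPM in knockdown 1, 2 and 3. The controls differed little, and knockdown 3 lay much nearer to them than the other two. The means were 56.1 ± 2.41 and 87.9 ± 19.8 CPM (SD, 3 libraries each), 1.57-fold higher with a 95% interval of 1.19 to 2.06 (edgeR adjusted p = 0.109). DESeq2, which called 6.27% of all tested genes, gave an adjusted p of 0.0292 for ADO.

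CDO1, the cysteine dioxygenase, commits cysteine to sulfinate and taurine. CDO1 (ENSG00000129596, chromosome 5, 115804733 to 115816954, minus strand) had 18.1, 19.3 and 21.9 CPM in the controls and 37.9, 28.0 and 21.5 CPM in knockdown 1, 2 and 3. Knockdown 3 fell within the control range, so the groups overlapped. The means of 19.8 ± 1.96 and 29.1 ± 8.29 CPM gave a fold of 1.48 (95% interval 1.06 to 2.04, edgeR adjusted p = 0.183), and the log2 fold change of 0.56 was 0.32 without knockdown 1. The ratio of ADO to CDO1 counts within a library hardly differed between groups, with a mean log2 ratio of 1.51 ± 0.187 in controls and 1.61 ± 0.155 under the knockdown label.

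RefSeq's table of promoters (GRCh38.p14) had entries for 7 of the 9 genes, and MPST and TST were not matched. The 250 bases before each start were searched on both strands for 8 motifs, namely the GC box GGGCGG, the CCAAT box, the TATA box TATAAA, the CRE core TGACG, the antioxidant response element core TGACNNNGC, the E box CACGTG, the EGR site GCGNGGGCG (which can overlap a GC box) and the AP-1 site TGANTCA. The promoter of ADO is shown because it is the 1 gene whose knockdown-labelled libraries all lay above the controls, with the CRE cores and the CCAAT box in capitals (chr10:62804470-62804719, plus strand).
ADO: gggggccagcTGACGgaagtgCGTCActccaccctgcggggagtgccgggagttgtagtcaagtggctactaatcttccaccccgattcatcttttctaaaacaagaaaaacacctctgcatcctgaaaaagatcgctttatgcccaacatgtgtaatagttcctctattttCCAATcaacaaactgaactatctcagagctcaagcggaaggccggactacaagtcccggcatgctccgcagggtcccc
It held 2 CRE cores, a motif present in 21.2% of 35116 promoters of that length, and 1 CCAAT box, present in 32.0%. The promoter of GOT1, a gene not higher on average under the knockdown label, held 1 CRE core and 5 CCAAT boxes. No other of the 7 promoters held either motif. The 250 bases searched for CDO1 held none of the 8 motifs, so the 2 dioxygenase stretches shared none of them. For CDO1, GOT1 and SQOR, 0 of the searched bases lay outside annotated exons, and for CSAD 53 did. For these genes the matches are therefore partly or wholly in annotated exon sequence, which limits the comparison with ADO.

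CSAD, cysteine sulfinate decarboxylase, forms hypotaurine, the precursor of taurine. CSAD (ENSG00000139631, chromosome 12, 53157663 to 53180909, minus strand) had 13.98, 15.8 and 11.4 CPM in the controls and 6.33, 9.57 and 10.9 CPM in knockdown 1, 2 and 3. The groups were separated only by the gap between control 3 and knockdown 3. The means were 13.7 ± 2.2 and 8.94 ± 2.36 CPM, a fold of 0.651 (95% interval 0.449 to 0.943, edgeR adjusted p = 0.190). Its log2 fold change of -0.62 ran from -0.79 to -0.43 when single libraries were left out. ZNF740, a zinc finger gene on the opposite strand, starts 209 bases away and overlaps CSAD over 210 bases, at 66.5 ± 4.56 and 60.8 ± 3.42 CPM.

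Set against CDO1, the enzyme that feeds it, CSAD was lower still. The log2 ratio of CSAD to CDO1 counts was -0.37, -0.29 and -0.94 in control 1, 2 and 3 and -2.58, -1.55 and -0.98 in knockdown 1, 2 and 3. The mean difference of -1.17 corresponded to a ratio 0.444 times that of the controls. Groups of 3 and 3 did not overlap, and the exact permutation test (two-sided) gave p = 0.1, the smallest that 20 arrangements allow, or 0.267 adjusted over 8 pairs. The difference was -0.73 without knockdown 1 and -1.53 without knockdown 3.

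GOT1, the cytosolic aspartate aminotransferase, acts in the malate-aspartate shuttle and also accepts cysteine and cysteine sulfinate. GOT1 (ENSG00000120053, chromosome 10, 99396870 to 99431569, minus strand) had 73.3, 72.7 and 80.8 CPM in the controls and 62.3, 52.4 and 85.2 CPM in knockdown 1, 2 and 3. Knockdown 1 and 2 lay below all controls and knockdown 3 above them. The fold was 0.881 with a 95% interval of 0.665 to 1.17 (edgeR adjusted p = 0.604), an interval that holds both lower and slightly higher levels. GOT2, its mitochondrial counterpart, which belongs to the wider list described below, averaged 203.2 ± 8.99 and 161.8 ± 19.1 CPM.

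MPST, mercaptopyruvate sulfurtransferase, makes persulfide sulfur in the cytosol and in mitochondria. MPST (ENSG00000128309, chromosome 22, 37019635 to 37029822, plus strand) had 52.2, 52.3 and 53.4 CPM in the controls and 47.7, 45.9 and 52.6 CPM in knockdown 1, 2 and 3. The SD of log2 CPM was 0.017 among controls, the smallest of the 9 genes there, and 0.101 under the knockdown label, where that of TST was smaller at 0.057, against medians of 0.161 and 0.311 over all tested genes. The fold was 0.925 with a 95% interval of 0.751 to 1.14 (edgeR adjusted p = 0.672).

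TST, also called rhodanese, is a paralog of MPST that lies beside it. TST (ENSG00000128311, chromosome 22, 37010859 to 37020183, minus strand) starts 548 bases from MPST on the other strand, and the 2 genes overlap over 549 bases, of which 6 are exonic in both. TST had 17.2, 18.9 and 19.9 CPM in the controls and 12.4, 13.02 and 12.0 CPM in knockdown 1, 2 and 3. All 3 libraries labelled knockdown lay together, well under the lowest control. The means of 18.7 ± 1.37 and 12.5 ± 0.498 CPM gave a fold of 0.67 (95% interval 0.517 to 0.867, edgeR adjusted p = 0.118, DESeq2 adjusted p = 0.0479).

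TST and MPST were also compared within each library. The log2 ratio of MPST to TST counts was 1.6, 1.47 and 1.42 in control 1, 2 and 3 and 1.94, 1.82 and 2.13 in knockdown 1, 2 and 3. The groups did not overlap, and the ratio was 1.38-fold higher under the knockdown label (exact permutation p = 0.1, the smallest possible, adjusted p = 0.267), which did not pass. The difference stayed between 0.38 and 0.53 on the log2 scale when any 1 library was left out.

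TSTD1 is a small single-domain sulfurtransferase that moves sulfur from thiosulfate to glutathione, and of the 9 genes it had the largest difference. TSTD1 (ENSG00000215845, chromosome 1, 161037631 to 161038990, minus strand) had 13.3, 20.8 and 20.9 CPM in the controls and 4.69, 5.42 and 8.39 CPM in knockdown 1, 2 and 3. Control 1 was the low control and knockdown 3 the high one of its group, and a gap remained between them. The means of 18.4 ± 4.38 and 6.17 ± 1.96 CPM gave a fold of 0.337, with a 95% interval of 0.221 to 0.511. Its edgeR adjusted p was 0.0672, and its unadjusted p ranked 37 among 18267 genes. DESeq2 gave an adjusted p of 1.63e-05.

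USF1, a transcription factor gene whose end lies just upstream of TSTD1 on the same strand, differed less, and its groups overlapped. It had 49.2, 46.1 and 47.7 CPM in the controls and 47.8, 31.5 and 49.1 CPM in knockdown 1, 2 and 3. AL591806.3, annotated over TSTD1 on its strand, shares 83 of the 1210 exon bases of TSTD1, so reads from those bases may be missing from the count of TSTD1. AL591806.3 had 2 to 11 reads per library, against 83 to 464 for TSTD1. Relative to TST in the same library, TSTD1 was low as well: the log2 ratio of TSTD1 to TST averaged -0.05 ± 0.279 in controls and -1.06 ± 0.476 under the knockdown label, with no overlap (exact permutation p = 0.1, adjusted p = 0.267).

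ETHE1, the persulfide dioxygenase, is the enzyme lost in ethylmalonic encephalopathy, a disease of sulfide poisoning. ETHE1 (ENSG00000105755, chromosome 19, 43506719 to 43527244, minus strand) had 7.64, 7.86 and 7.1 CPM in the controls and 4.13, 4.57 and 5.28 CPM in knockdown 1, 2 and 3. Both groups were narrow and did not overlap. The means of 7.53 ± 0.391 and 4.66 ± 0.579 CPM gave a fold of 0.619 (95% interval 0.439 to 0.871, edgeR adjusted p = 0.138). The value rests on 73 to 175 reads per library.

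SQOR, sulfide quinone oxidoreductase, passes electrons from sulfide to ubiquinone, and it was the least abundant of the 9 genes. SQOR (ENSG00000137767, chromosome 15, 45631148 to 45691294, plus strand) had 2.47, 3.77 and 3.73 CPM in the controls and 1.24, 1.54 and 2.74 CPM in knockdown 1, 2 and 3. Knockdown 3 exceeded control 1, so the groups overlapped. The fold was 0.557 with a wide 95% interval of 0.324 to 0.958 (edgeR adjusted p = 0.217), and each library held only 22 to 84 reads of it. AC090527.2, annotated on the same strand, covers 28.5% of the exon bases of SQOR and had at most 1 read in a library, so reads from those bases may be missing from the count of SQOR.

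ETHE1 and SQOR, which act in sequence, overlapped between groups in their ratio. The log2 ratio of ETHE1 to SQOR averaged 1.21 ± 0.371 in controls and 1.41 ± 0.416 under the knockdown label (exact permutation p = 0.7), and that of TST to ETHE1 averaged 1.31 ± 0.164 and 1.43 ± 0.213 (exact permutation p = 0.4). With 3 libraries a group, these tests cannot show that the ratios were equal.

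The promoters of TSTD1 and ETHE1 are shown because these genes had the lowest folds among those whose groups did not overlap. Only the bases before the start that lie outside annotated exons are printed, with GC boxes and EGR sites in capitals (TSTD1 at chr1:161038991-161039214 and ETHE1 at chr19:43527245-43527451, both minus strand).
TSTD1: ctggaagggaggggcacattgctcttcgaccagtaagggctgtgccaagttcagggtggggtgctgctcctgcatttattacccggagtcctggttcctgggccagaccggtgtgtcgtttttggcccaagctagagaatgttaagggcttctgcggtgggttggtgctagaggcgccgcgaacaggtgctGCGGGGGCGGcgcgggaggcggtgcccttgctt
ETHE1: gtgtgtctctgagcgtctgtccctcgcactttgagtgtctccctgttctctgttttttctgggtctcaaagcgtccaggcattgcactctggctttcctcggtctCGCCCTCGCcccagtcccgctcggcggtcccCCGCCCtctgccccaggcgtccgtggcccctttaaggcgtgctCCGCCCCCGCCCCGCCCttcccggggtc
TSTD1 held 1 EGR site and ETHE1 held 2, a motif found in 8.41% of all promoters, and GOT1 held 2 as well. GC boxes, found in 42.6% of all promoters, numbered 1 in TSTD1, 4 in ETHE1, 4 in SQOR and 1 in GOT1. The stretches searched for SQOR and GOT1 lay inside annotated exons. None of the 7 promoters held an antioxidant response element core (10.9% of all promoters), an E box (6.34%), an AP-1 site (6.57%) or a TATA box (10.7%). A match is a stretch of letters and not a measured binding site.

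**Figure D2:**
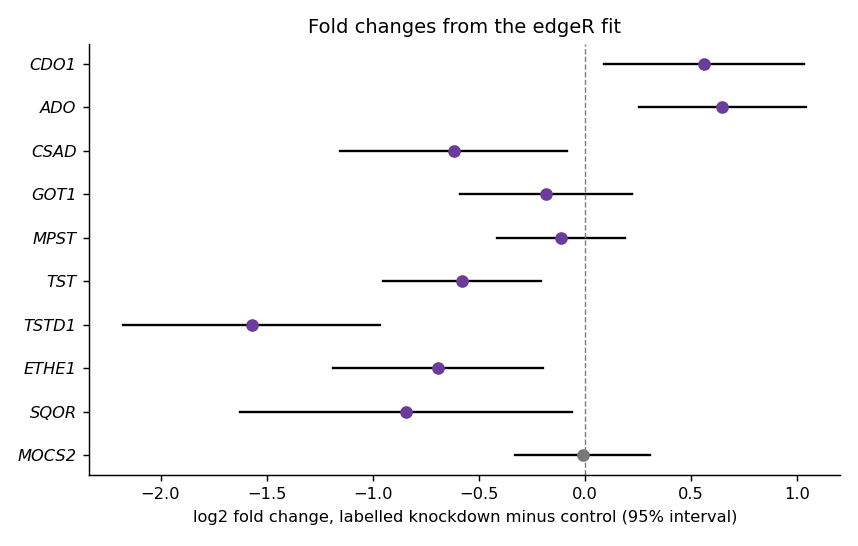
Log2 fold change (horizontal axis, labelled knockdown minus control) of the 9 genes and of MOCS2 from the edgeR fit, with bars for the 95% interval. The intervals of GOT1, MPST and MOCS2 include 0, those of CDO1 and ADO lie above it and those of the other 5 genes below it, before any adjustment for the number of genes tested.

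Levels between genes were compared per kilobase of annotated exon. In controls the order was GOT1 at 22.4 ± 1.34 CPM per kilobase, ADO at 15.5 ± 0.664, TSTD1 at 15.2 ± 3.62, TST at 9.64 ± 0.708, CDO1 at 9.03 ± 0.893, MPST at 7.79 ± 0.0937, ETHE1 at 4.7 ± 0.244, CSAD at 3.13 ± 0.501 and SQOR at 1.08 ± 0.239. ADO and TSTD1 overlapped over their control libraries, and so did TST and CDO1. The other neighbours in the order did not overlap. Under the knockdown label ADO came first at 24.2 ± 5.46 CPM per kilobase, overlapping GOT1 at 19.8 ± 5.0, and CDO1 followed at 13.3 ± 3.79, overlapping GOT1. TSTD1, level with ADO in the controls, had 5.1 ± 1.62 CPM per kilobase there and stood on average below MPST at 7.2 ± 0.512 and TST at 6.45 ± 0.257, though knockdown 3 overlapped both. The exon length sums all annotated exons, some of which a given transcript does not use, so the order is approximate. Without the exon bases it shares with AC090527.2, SQOR stood at 1.51 and 0.835 CPM per kilobase and was still the lowest.

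The libraries labelled knockdown were not alike. Knockdown 3 was the nearest of the 3 to the control mean in 8 of the 9 genes (88.9%), against 53.3% of all tested genes, and TST was the exception. Knockdown 1 was the farthest in 6 of the 9 genes (CDO1, ADO, CSAD, TSTD1, ETHE1 and SQOR), or 66.7%, against 41.6% of all genes. For TSTD1 the log2 deviations from the control mean were -1.92, -1.71 and -1.09 in knockdown 1, 2 and 3, for SQOR -1.32, -1.04 and -0.24, and for ADO 0.88, 0.76 and 0.23. GOT1 and MPST were farthest in knockdown 2, at -0.53 and -0.20, and TST was farthest in knockdown 3, with -0.58, -0.51 and -0.63 in knockdown 1, 2 and 3. The median over the 9 genes was -0.58, -0.51 and -0.24 in knockdown 1, 2 and 3, and the median over all genes was between -0.003 and 0.011 in those libraries.

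**Figure D3:**
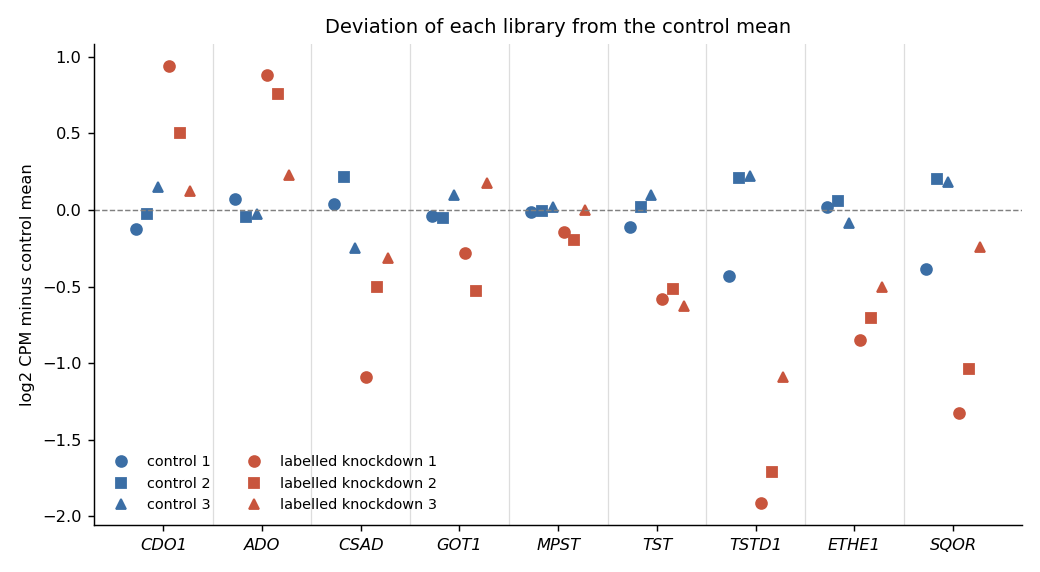
Log2 CPM of each gene in each library minus the mean of the 3 controls (vertical axis), in blue for controls and red for libraries labelled knockdown. Knockdown 3 (red triangles) lies nearest to 0 in every gene but TST, and knockdown 1 (red circles) reaches 0.94 in CDO1 and -1.92 in TSTD1.

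The count of genes passing the test turned on knockdown 3. Without it, edgeR called 14.8% of all genes tested, and 5 of the 9: CDO1 (adjusted p = 0.0238) and ADO (0.005) higher, and TSTD1 (0.00191), ETHE1 (0.0453) and SQOR (0.0348) lower. TST (0.0578) and CSAD (0.052) just missed the threshold, and GOT1 (0.0998) and MPST (0.434) did not pass. Without any other single library 0 of the 9 passed. With all 6 libraries DESeq2 called ADO, TST and TSTD1.

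**Figure D4:**
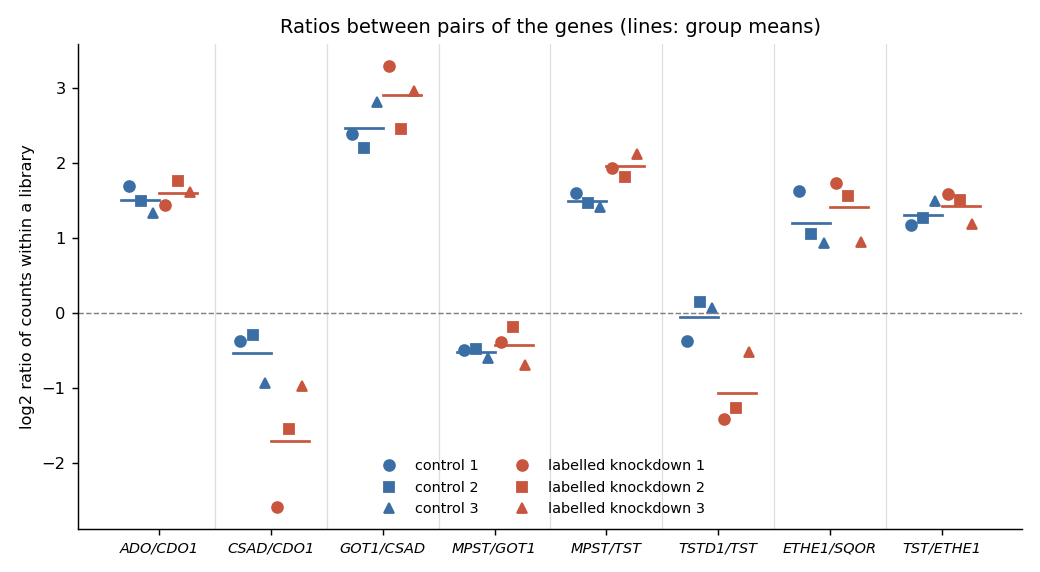
Log2 ratio of the read counts of 2 genes within each library (vertical axis) for 8 pairs chosen by role, with lines for the group means. The groups do not overlap for CSAD to CDO1, MPST to TST and TSTD1 to TST, and they overlap for the other 5 pairs.

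In all, 8 within-library ratios were compared, and the exact permutation test cannot go below p = 0.1 with 3 libraries against 3. Besides those given above, GOT1 to CSAD averaged 2.47 ± 0.318 in controls and 2.9 ± 0.426 under the knockdown label (exact permutation p = 0.2), and MPST to GOT1 averaged -0.52 ± 0.067 and -0.42 ± 0.256 (exact permutation p = 0.6). Several of the differences moved by more than 1.5 times when 1 library was left out. That of ADO to CDO1, 0.10 with all libraries, ran from 0.0075 (without control 3) to 0.19 (without control 1). That of ETHE1 to SQOR, 0.21, ran from 0.05 (without knockdown 1) to 0.44 (without knockdown 3), and that of GOT1 to CSAD, 0.43, from 0.24 (without knockdown 1) to 0.66 (without knockdown 2). That of TST to ETHE1, 0.12, ran from 0.04 (without knockdown 1) to 0.24 (without knockdown 3).

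A wider list of 27 other genes of cysteine supply, taurine, cysteamine, sulfide and persulfide handling held mostly genes with lower means under the knockdown label. Of these, 23 could be tested, 0 passed over all genes, and 18 had a negative log2 fold change (78.3%, against 48.2% of all genes), with a median of -0.29. At an unadjusted p of 0.05 the list had 7 genes, or 30.4%, against 20.5% of all genes. Of these, 6 were lower (all genes 10.6%) and 1 higher (all genes 9.93%). The groups did not overlap in 39.1% of the list, against 26.8% of all genes, with 8 genes below (all genes 14.3%) and 1 above (12.5%). SELENBP1, a methanethiol oxidase that releases hydrogen sulfide, averaged 9.48 ± 1.84 and 4.06 ± 1.66 CPM (log2 fold change -1.22, edgeR adjusted p = 0.102). KYAT1 and KYAT3, cysteine conjugate beta-lyases, averaged 6.98 ± 2.43 and 2.89 ± 0.974 CPM, and 32.0 ± 0.854 and 18.2 ± 8.04 CPM. SLC25A10, a mitochondrial dicarboxylate carrier that also moves thiosulfate, averaged 15.95 ± 1.02 and 8.61 ± 3.79 CPM, and TSTD3, another rhodanese-domain gene, 3.08 ± 0.45 and 1.83 ± 0.715 CPM. GOT2 was the sixth gene with a lower value. TXNRD1, thioredoxin reductase, was the 1 higher gene, at 237.8 ± 5.05 and 359.8 ± 155 CPM, with 538.2 CPM in knockdown 1 and 261.8 and 279.5 CPM in knockdown 2 and 3. The sulfide-producing enzymes of transsulfuration, CBS (5.77 ± 0.919 and 4.33 ± 1.26 CPM) and CTH (12.5 ± 2.15 and 9.35 ± 3.6 CPM), did not reach that unadjusted threshold. Neither did SUOX, at 18.7 ± 1.58 and 15.4 ± 2.65 CPM (log2 fold change -0.28), and its groups overlapped.

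Across the 6 libraries, the gene of the 9 most like TSTD1 was ETHE1 (Pearson r of log2 CPM 0.951), that most like ADO was CDO1 (0.919), and that most like TST was TSTD1 (0.924). Among 10457 genes with at least 10 CPM on average, KLHL13 (0.997) and DERA (0.997) were most like TSTD1, ARHGAP22 (0.999) and TMEM33 (0.998) most like ADO, and MED22 (0.986) most like TST. These values describe 6 libraries in 2 groups that share their scaling, and with so many genes some reach values this high.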

How the data were processed

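For the 6 libraries the authors deposited unnormalised counts of reads by Ensembl gene identifier. Per the labels' protocols, stranded total RNA libraries were made after Ribo-Zero Gold depletion, and per the submitters' processing notes the tools were TopHat2 2.0.13, bcl2fastq 2.18 and HTSeq, and the build was hg38. The strand setting and annotation release were not given in the sources used here, so reads of genes overlapping on opposite strands may not be separated. The 5 special HTSeq rows stayed out of library sizes and tests. Symbols, positions and exon lengths came from GENCODE 29 (GRCh38), which matched 57055 of 60675 identifiers. Groups and replicate numbers came from the sample titles.

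The test was that of edgeR 4.0.16 under R 4.3.3 (TMM factors, filterByExpr, quasi-likelihood F test, two-sided, Benjamini-Hochberg adjustment over all 18267 genes that passed the filter, threshold 0.05), and it was checked on counts drawn with known changes. CPM (counts scaled to library size by TMM factors) were taken to log2 with a prior of 2 counts. Intervals are edgeR's estimate plus or minus its standard error times the t quantile. Alternatives were DESeq2 1.42.0, limma 3.58.1 (voom), other size factors, other filters, the replicate block, and leaving out each library. Named genes were all 9, wider-list genes at an unadjusted p under 0.05, genes that overlap one of the 9 or start within 10 kb of its start, and the 2 closest genes by correlation for the 3 of the 9 with the smallest p, of which 1 is not reported here. CBS, CTH, SUOX, EGR2, IGFBP6 and RARG were named outside that rule after their values were seen. So were ZNF365, F11R, PHLDB3, BLOC1S6, ATG12, XRCC1 and SEMA6D. The 9 genes and the lists were chosen with earlier results of these data known. No 2 replicates were alike within sampling noise, as the chi-square divided by its degrees of freedom was 11.7 to 76.7.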

Additional observations from a re-analysis of the deposited data

Results flagged for a closer look

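Reads that HTSeq placed outside annotated genes, which enter none of the comparisons, made up 37.5% of uniquely aligned reads in knockdown 2, above the highest control at 24.95%. Knockdown 1 and 3 stood at 22.3% and 21.5%. Whether this moved with the 9 genes was not tested. Knockdown 2 was the library farthest from the control mean in 2 of them, GOT1 and MPST (22.2%, against 43.6% of all tested genes). Without knockdown 2 the log2 fold changes of GOT1 and MPST were -0.04 and -0.08 in place of -0.18 and -0.11.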

How the results depend on the processing

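All 9 log2 fold changes kept their sign under all 13 alternatives, ranging from 0.51 to 0.82 for ADO, 0.32 to 0.73 for CDO1, -1.86 to -1.41 for TSTD1, -0.64 to -0.54 for TST, -0.80 to -0.62 for ETHE1, -1.25 to -0.63 for SQOR, -0.79 to -0.43 for CSAD, -0.40 to -0.04 for GOT1 and -0.18 to -0.08 for MPST. The calls did depend on the processing: against 0 higher and 0 lower, DESeq2 called 1 higher and 2 lower (6.27% of all genes), and edgeR with no filter called 1 higher (ADO) and 1 lower (TSTD1), where it called 3.64% of 43251 genes. Of the wider list, 4 genes were called lower by each of these, and 0 to 6 when single libraries were left out (0% to 14.8% of all genes). Leaving out single libraries gave 0 to 2 of the 9 called higher and 0 to 3 called lower, the upper ends without knockdown 3. It gave 1 to 2 higher and 3 to 6 lower at an unadjusted p of 0.05, against 10.6% to 31.1% of all genes in both directions. Without overlap it gave 1 to 2 higher (all genes 14.9% to 22.7%) and 4 to 7 lower (16.6% to 24.6%). Upper-quartile and DESeq2 size factors, voom and the filter at 1 CPM in 3 libraries called 0. The difference in the log2 ratio of MPST to GOT1 ran from -0.0211 (without knockdown 2) to 0.232. The causes were not tested.

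Correlations of deviations from the group means were 0.114, -0.167 and -0.125 for libraries of equal replicate number. For unequal numbers they ran from -0.077 to 0.189. With 3 libraries a group, these values cannot show whether equal numbers pair the libraries. With the replicate block, edgeR called 1 of the 9 genes, TSTD1 (adjusted p = 0.0455), and 0.104% of all genes. SQOR and ETHE1 are limited by depth, with 22 to 84 and 73 to 175 reads per library.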

Other observations

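ADO has as its next tested neighbour EGR2, an early growth response transcription factor gene on the opposite strand whose annotated end lies closest to ADO (chromosome 10, 62811996 to 62919900). EGR2 had 1.48, 0.853 and 1.91 CPM in control 1, 2 and 3 and 5.88, 5.37 and 2.32 CPM in knockdown 1, 2 and 3, with a log2 fold change of 1.68 (edgeR adjusted p = 0.0979). Like ADO, it was higher in all 3 libraries labelled knockdown than in any control, and knockdown 3 was the nearest to the controls. The tested neighbours of CSAD beyond ZNF740 were lower in all 3 libraries labelled knockdown than in any control. IGFBP6, a gene for a binding protein of insulin-like growth factors, averaged 2.55 ± 0.47 and 0.898 ± 0.143 CPM (log2 fold change -1.50, edgeR adjusted p = 0.0812). RARG, a retinoic acid receptor gene, averaged 9.31 ± 0.279 and 4.74 ± 2.36 CPM (log2 fold change -0.97, edgeR adjusted p = 0.140). EGR2, IGFBP6 and RARG, and the neighbours below, were named after their values were seen. ZNF365, on the other side of ADO, overlapped between groups (log2 fold change 0.34). F11R beside TSTD1 (-0.02) and PHLDB3 beside ETHE1 (0.13) differed little, and BLOC1S6 beside SQOR was higher (0.41). ATG12 beside CDO1 (0.40), XRCC1 beside ETHE1 (-0.54) and SEMA6D beside SQOR (-0.83) had the same sign as those genes. Whether neighbours moved together was not tested.

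AL391684.1, which overlaps the start of GOT1 on the opposite strand, averaged 1.86 ± 0.353 and 1.64 ± 0.38 CPM. ZNF575, which overlaps 14.8% of the exon bases of ETHE1 on the opposite strand, had 0 to 5 reads per library and was not tested. AC067751.1, on the strand opposite ADO, overlaps 159 of its exon bases and had 0 to 9 reads per library. The ADO promoter shown above lies within AC067751.1 but outside its exons. AC073573.1 over CSAD and RF00019 over TST, each on the opposite strand, were also too low to be tested, as was AC067751.1.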
